A study of Mus musculus with 4 samples.

Results

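Cadherins are cell surface proteins that bind calcium and hold neighbouring cells together, usually by pairing with the same cadherin on the next cell. Classical cadherins reach catenins through their inner tail, and through these the actin skeleton, at the adherens junction. Protocadherins bind more weakly and sort cells by the members they carry. In the inner ear, E-cadherin marks the epithelia that line the fluid spaces, while N-cadherin and cadherin-11 are typical of neural, sensory or mesenchymal cells. The genes described here were taken by symbol, with earlier results of these data known. Included were cadherins named Cdh or Cdhr with a number and every protocadherin, without Cdh23 and Pcdh15 of the hair cell tip link. They are 96 of the 24346 genes listed, and 48 of them had a mean of at least 1 FPKM over the 4 libraries and were tested.

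The samples are primary cultures from mouse inner ear, 2 labelled as vestibular cells (the balance organs) and 2 as cochlear cells (the hearing organ), with RNA taken by TRIzol and sequenced after mRNA selection. FPKM, the fragments assigned to a gene scaled by transcript length and library size, are given for each library. The labels name no strain, age, time in culture or treatment, and they do not say whether the libraries of a group came from separate animals or cultures, so p-values measure only the spread between these libraries. Both groups are mixed cultures, in which fewer cells of a type and less RNA per cell cannot be told apart.

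The libraries differed in the levels of cell type markers. Epithelial markers (12 of 12 listed, 11 tested) summed to 2041 and 2455 FPKM in the cochlear libraries, 1056 in vestibular 1 and 77.7 in vestibular 2. Fibroblast and mesenchymal markers (12 listed, 11 tested, Tcf21 listed at 0 in all libraries) summed to 3137 and 6385 FPKM in the vestibular libraries, against 1473 and 980 in the cochlear ones. Macrophage markers summed to between 6170 and 8042 FPKM in vestibular 1, vestibular 2 and cochlear 1, and to 23.1 in cochlear 2. Cartilage markers (10 listed) summed to 892 and 4267 FPKM in vestibular 1 and 2, against 548 and 1074 in cochlear 1 and 2. Melanocyte markers (6 listed) summed to 9.94 and 227 against 8.06 and 4.76 FPKM, so both lists were highest in vestibular 2. Of the hair cell markers, the defining transcription factor genes Atoh1, Gfi1 and Pou4f3 had a highest value of 0.10, 0.925 and 1.0 FPKM, and the list of 10 summed to 30.4 to 42.4 FPKM. An exact 0 need not mean silence, since Rpl26, needed by every ribosome, also has 0 in each of the 4.

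The cadherin that came first differed between the groups. Cdh11, the mesenchymal type II cadherin, was the highest member in both vestibular libraries, and Cdh1, which encodes E-cadherin, was the highest in both cochlear libraries. The gene Pcdhgc3 of the gamma protocadherin cluster was among the 3 highest in every library. Together these 3 genes held 60.4% and 61.8% of the members' summed FPKM in vestibular 1 and 2, and 58.0% and 55.9% in cochlear 1 and 2. All 96 members summed to 504 and 596 FPKM in the vestibular libraries, against 429 and 471 in the cochlear ones. The sum thus lay higher in both vestibular libraries, with its parts exchanged: type II cadherins made up 43.1% and 41.9% of it there against 19.4% and 16.8%, and type I cadherins 9.22% and 7.28% against 29.5% and 33.1%.

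**Figure D1:**
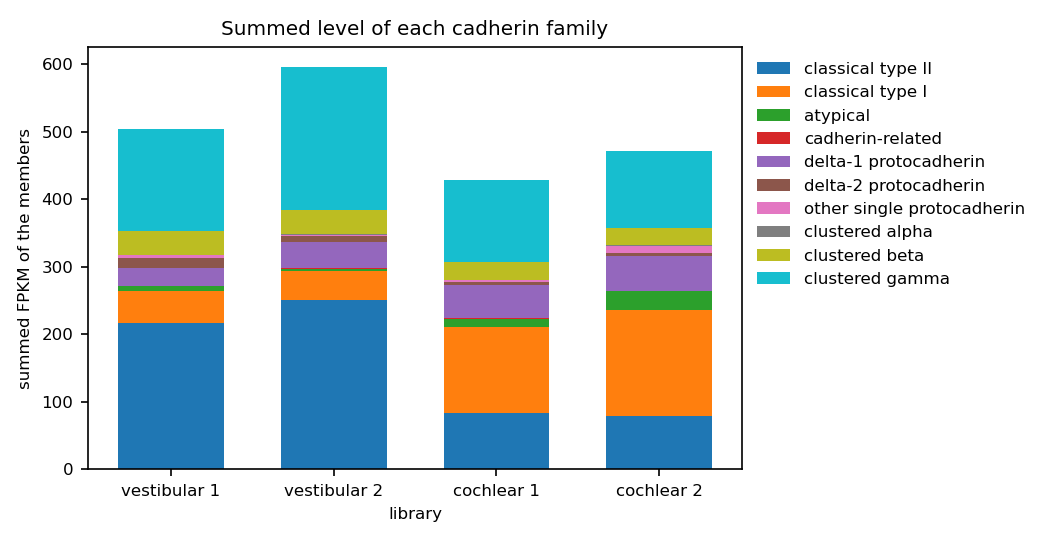
Stacked bars give the summed FPKM of the 96 genes in each of the 4 libraries, split by family. Type II cadherins (217 and 250 FPKM) form the largest block of the vestibular bars and type I cadherins (127 and 156 FPKM) that of the cochlear bars, while the gamma cluster holds 114 to 211 FPKM in each library.

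No member passed the threshold of limma after adjustment over all genes tested (0 of 48 at an adjusted p of 0.05, lowest adjusted p 0.0665). Over all 13200 genes 0.0303% passed. At an unadjusted p under 0.05 there were 9 members, 6 with the vestibular mean above and 3 with the cochlear mean above, and all genes were at 7.61% and 10.6% in these directions. The groups did not overlap in 28 of the 48, with the vestibular pair above in 24, against 26.9% of all genes, and the cochlear pair above in 4, against 28.4%. With 2 libraries against 2 the smallest exact 2-sided permutation p is 0.333, so each limma p draws on a variance estimated over many genes. The median log2 difference of the 48, vestibular minus cochlear on the log2(FPKM + 1) scale, was 0.30, beside 0.01 over all genes. Above 0 were 39 of the 48, and 6788 of all 13200 genes. Most of these 39 were genes of the protocadherin clusters, with 29 of 31 above 0, against 10 of the 17 other members (median 0.21). Both vestibular libraries were above in 17 of the 31 and in 7 of the 17. Without vestibular 2 the median of the 48 was 0.13 and 28 of them were above 0. The count at an unadjusted p under 0.05 rose on leaving out either vestibular library and fell on leaving out either cochlear library. Over all genes, the share at such a p rose without vestibular 1 and fell without each of the others. The 9 members kept their direction on leaving out each library. The log2 difference then ran from -2.15 to -1.90 for Pcdh1, from 0.98 to 1.43 for Cdh2 and from 1.21 to 1.85 for Cdh19.

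**Figure D2:**
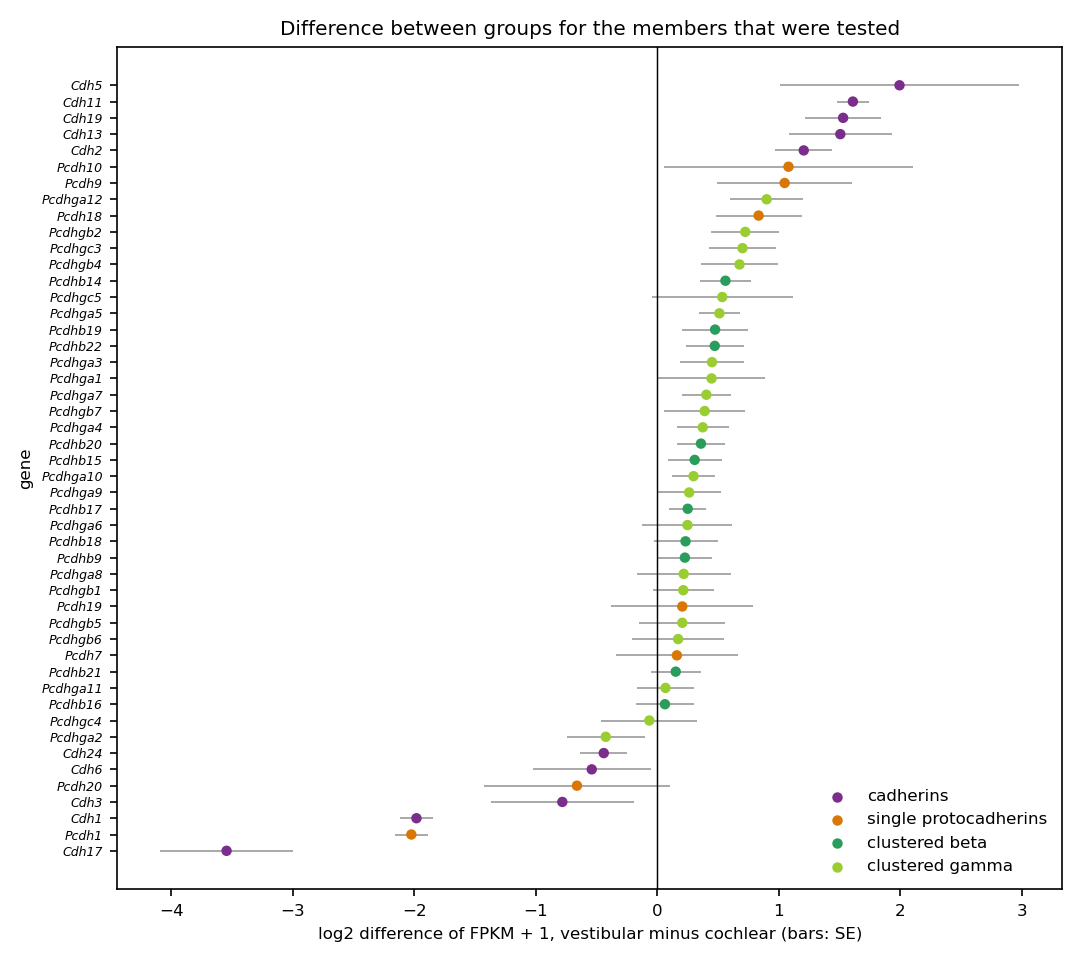
Points give the log2 difference (vestibular minus cochlear, FPKM + 1) of the 48 members tested and bars its SE. Cdh17, Pcdh1 and Cdh1 stand apart at the bottom with differences from -3.54 to -1.98, while the clustered genes lie between -0.42 and 0.90.

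Among the type I cadherins, Cdh1 stood at 32.2 and 33.9 FPKM in vestibular 1 and 2, and at 122 and 146 FPKM in cochlear 1 and 2. The groups did not overlap, and the cochlear mean of 134 ± 17.5 FPKM was 4.05 times the vestibular mean of 33.0 ± 1.15 (SD, n = 2 each). The log2 difference was -1.98 (SE 0.14, limma p 0.000206, adjusted p 0.0665), and it ran from -2.11 to -1.85 on leaving out each library. In mm10, Cdh1 occupies bases 106603351 to 106670246 of chromosome 8 (plus strand), and Cdh3, which encodes the epithelial P-cadherin, lies just before it at 106510891 to 106557297. The neighbour did not share the separation. Cdh3 had 1.81 and 0.443 FPKM in the vestibular libraries, against 1.30 and 4.19 in the cochlear ones, with overlapping groups (log2 difference -0.78, SE 0.59, limma adjusted p 0.511).

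N-cadherin went the other way from E-cadherin. Cdh2, whose product joins neural and many mesenchymal cells, had 12.2 and 8.63 FPKM in the vestibular libraries, against 3.37 and 4.45 in the cochlear ones. Both vestibular libraries were higher, with a log2 difference of 1.21 (SE 0.24, limma p 0.00836, adjusted p 0.171). E-cadherin mRNA was still above N-cadherin mRNA everywhere: Cdh1 FPKM was 2.65 and 3.92 times Cdh2 FPKM in vestibular 1 and 2, and 36.1 and 32.9 times in cochlear 1 and 2. The other type I genes were low. Cdh4 (R-cadherin) had at most 0.573 FPKM in any library and Cdh15 (M-cadherin of muscle) at most 0.274, both under the level tested.

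Cdh11 encodes the cadherin first found in osteoblasts and is a mark of mesenchymal cells. It had 205 and 225 FPKM in the vestibular libraries, against 75.3 and 64.8 in the cochlear ones (215 ± 14.1 against 70.0 ± 7.45, SD, n = 2 each), so the groups did not overlap. Its log2 difference was 1.61 (SE 0.13, limma p 0.000406, adjusted p 0.0790), and it ran from 1.5 to 1.72 on leaving out each library. Set against E-cadherin within a library, Cdh11 FPKM was 6.38 and 6.66 times Cdh1 FPKM in the vestibular libraries, and 0.619 and 0.443 times in the cochlear libraries. The balance between these cadherins thus inverted between the groups, while libraries of a group gave close ratios. Cdh11 is on the minus strand of chromosome 8 at 102632095 to 102785642.

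The remaining type II cadherins were lower and less uniform. Cdh19, a cadherin of Schwann cells and their neural crest precursors, had 3.83 and 2.08 FPKM in the vestibular libraries, against 0.389 and 0.285 in the cochlear ones. Both vestibular libraries were higher (log2 difference 1.53, SE 0.31, limma p 0.00978, adjusted p 0.179). Sox10, a transcription factor gene of glia and also of otic epithelium, lay the other way, with 37.7 and 15.5 against 108 and 100 FPKM. The part of glial cells in the Cdh19 values was not tested.

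Cdh5, the VE-cadherin gene of endothelium, was a matter of 1 library. It stood at 10.7 FPKM in vestibular 2, and at 0.915, 0.293 and 0.0955 in vestibular 1, cochlear 1 and cochlear 2. The other endothelial genes listed were uneven in vestibular 2. There Pecam1 had 0.155, Tie1 0.0769, Esam 0.286 and Vwf 0.382 FPKM, and Cldn5 is listed at 0 in all 4 libraries. Kdr and Erg had 0.808 and 0.812 FPKM in vestibular 2, and were highest in vestibular 1 (4.85 and 14.7 FPKM). Tek, Egfl7 and Emcn had 2.58, 5.32 and 34.3 FPKM in vestibular 2, each with a higher value in a cochlear library. The endothelial list of 10 summed to 42.5 and 44.7 FPKM in the vestibular libraries, against 125 and 303 in the cochlear ones, of which the endomucin gene Emcn alone held 112 and 287 FPKM in the cochlear libraries. The Cdh5 log2 difference was 1.99 (SE 0.98, limma adjusted p 0.374), and 0.69 without vestibular 2.

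Cdh6, a type II cadherin known from kidney and neural crest, had 3.46 and 6.91 FPKM in the vestibular libraries, against 5.14 and 11.1 in the cochlear ones. Its groups overlapped (log2 difference -0.54, SE 0.49, limma adjusted p 0.575). Cdh24 had 1.45 and 1.27 against 2.05 and 2.36 FPKM, with both cochlear libraries above but no call (log2 difference -0.44, limma adjusted p 0.336); the predicted gene Gm17606 overlaps it on the opposite strand, and whether strand was used in counting is not given. Cdh8 and Cdh10, cadherins of neurons, were under the level tested, with values above 1 FPKM only in vestibular 2 (1.49 and 1.65 FPKM, against at most 0.917 elsewhere). Cdh7 and Cdh12 are listed at 0 in every library. Cdh9, Cdh18, Cdh20 and Cdh22 reached at most 0.149 FPKM in any library.

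Of the atypical cadherins, Cdh17 gave the widest difference of any member. It encodes the liver-intestine cadherin of gut epithelium, which lacks the catenin-binding tail. Cdh17 stood at 10.8 and 27.3 FPKM in the cochlear libraries, against 0.998 and 0.231 in the vestibular ones. The groups were far apart although the cochlear libraries themselves differed (19.1 ± 11.6 against 0.615 ± 0.542, SD, n = 2 each). The log2 difference was -3.54 (SE 0.54, limma p 0.00372, adjusted p 0.132), from -4.17 without cochlear 1 to -2.92 without cochlear 2.

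Cdh13, which encodes the T-cadherin held in the membrane by a lipid anchor, had 5.38 and 2.67 FPKM in the vestibular libraries, against 1.15 and 0.347 in the cochlear ones. Both vestibular libraries were higher (log2 difference 1.51, SE 0.42, limma p 0.0268, adjusted p 0.230). The kidney cadherin gene Cdh16 and Cdh26 stayed under 1 FPKM in all libraries. Among the cadherin-related genes Cdhr2 and Cdhr5, which build the links between intestinal microvilli, are listed at 0 in every library. Cdhr1, known from photoreceptors, had 0.552 to 1.13 FPKM, and Cdhr3 at most 0.617.

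**Figure D3:**
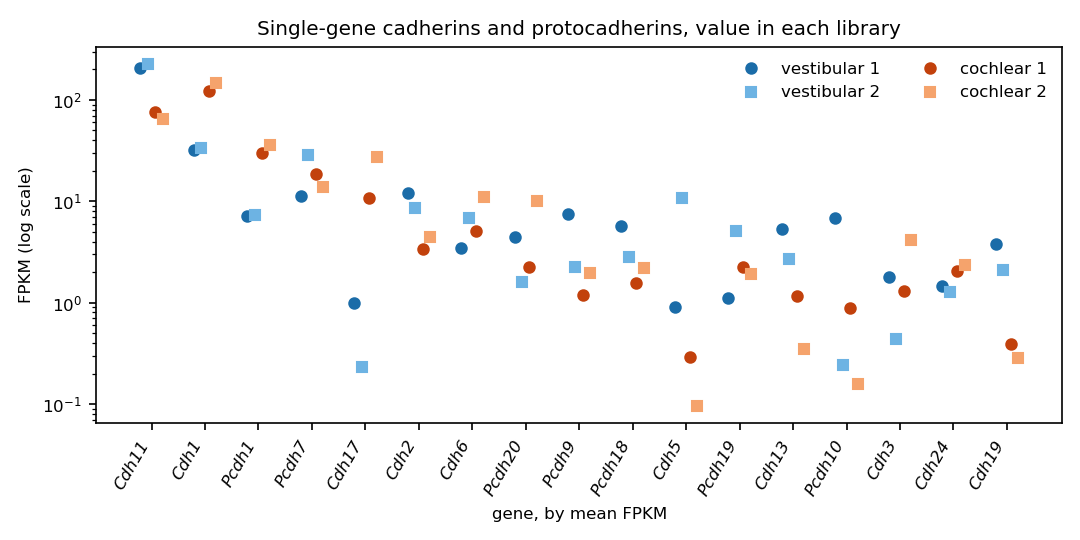
Points give the FPKM of each library, on a log axis, for the 17 genes outside the protocadherin clusters that were tested. Cdh11 (65 to 225 FPKM) and Cdh1 (32 to 146 FPKM) have the highest means, and the blue vestibular and orange cochlear points separate in opposite directions for these genes.

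Pcdh1, a delta-1 protocadherin known from human airway epithelium, ran beside E-cadherin. It had 7.2 and 7.29 FPKM in the vestibular libraries, against 29.8 and 35.5 in the cochlear ones (7.24 ± 0.0635 against 32.7 ± 4.09, SD, n = 2 each). The groups did not overlap, and the log2 difference was -2.02 (SE 0.13, limma p 0.000185, adjusted p 0.0665). Its FPKM was 0.223, 0.215, 0.245 and 0.243 times that of Cdh1 in vestibular 1, vestibular 2, cochlear 1 and cochlear 2. The ratio between these genes thus held within a narrow range in all 4 libraries.

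Epithelial markers did not share the evenness of Cdh1 and Pcdh1 within the vestibular group. The epithelial adhesion gene Epcam stood at 49.3 FPKM in vestibular 1 and 14.2 in vestibular 2, with 113 and 148 in the cochlear libraries. Krt8, a keratin of simple epithelia, had 297 FPKM in vestibular 1 and 10.5 in vestibular 2, and Grhl2, an epithelial transcription factor gene, at 3.76 and 1.13. Each of these was far lower in vestibular 2 than in vestibular 1, while Cdh1 was 32.2 and 33.9 FPKM. Cdh1 FPKM was 0.653, 2.38, 1.08 and 0.988 times Epcam FPKM in vestibular 1, vestibular 2, cochlear 1 and cochlear 2, so vestibular 2 stood apart by this ratio. The vestibular libraries were closer to each other for Cdh17, at 0.0202 and 0.0163 times Epcam FPKM in the vestibular, and 0.0961 and 0.184 times in the cochlear libraries. The log2 difference of Cdh1 was -2.02 without vestibular 2 and -1.95 without vestibular 1. The part of epithelial cell content in these differences was not tested.

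**Figure D4:**
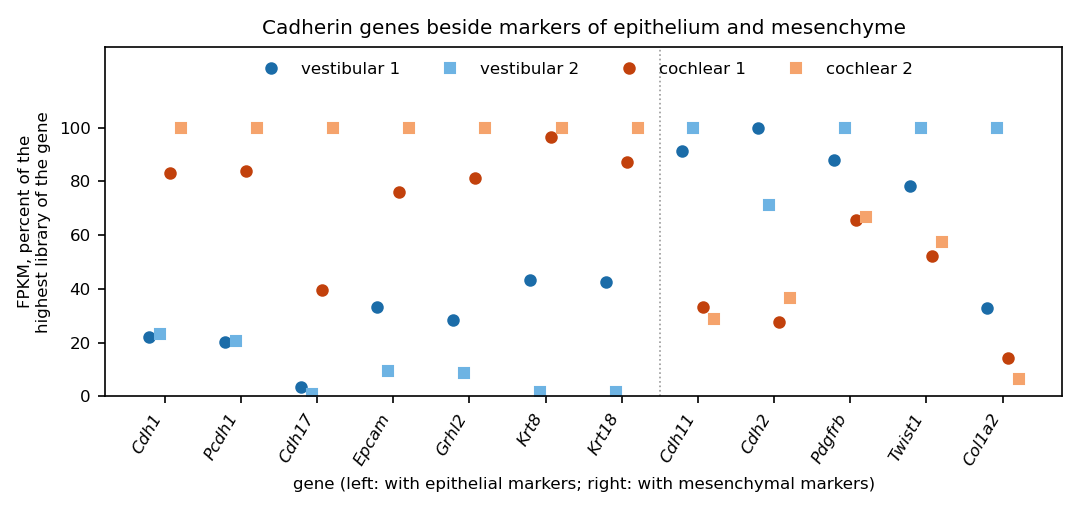
Points give the FPKM of each library as a percent of the highest library of the same gene. On the left, Cdh1 and Pcdh1 lie at 20.3% to 23.1% in both vestibular libraries, whereas Krt8 lies at 43.2% in vestibular 1 and 1.53% in vestibular 2. On the right, Cdh11 lies at 33.4% and 28.7% in cochlear 1 and 2. The mesenchymal genes lie on both sides of it there: Pdgfrb at 65.6% and 66.8%, Twist1 at 52.2% and 57.6%, and Col1a2 at 14.3% and 6.32%.

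On the mesenchymal side, Cdh11 kept no fixed ratio to fibroblast genes. Pdgfrb, a growth factor receptor gene of fibroblasts and pericytes, had 91.8 and 105 FPKM in the vestibular libraries, against 68.6 and 69.8 in the cochlear ones. Cdh11 FPKM was 2.24 and 2.16 times Pdgfrb FPKM in the vestibular libraries, and 1.10 and 0.928 times in the cochlear libraries. Twist1, a transcription factor gene of mesenchyme, gave ratios of 11 and 9.48 against 6.07 and 4.73. Prrx1, another such factor gene, had a log2 difference of 2.05 (SE 0.47, limma adjusted p 0.191), beyond that of Cdh11. The collagen gene Col1a2 spread far more within the vestibular group (1140 and 3452 FPKM) than Cdh11. The part of fibroblast content in the Cdh11 difference was not tested.

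Among the other delta-1 protocadherins, Pcdh7 was well expressed without separating the groups. It had 11.2 and 28.8 FPKM in the vestibular libraries, against 18.4 and 13.9 in the cochlear ones (log2 difference 0.16, SE 0.50, limma adjusted p 0.881), with a negative difference without vestibular 2 (-0.48). The extremes were the vestibular libraries themselves. Pcdh9, a gene of developing neurons, stood at 7.55 and 2.25 against 1.20 and 1.95 FPKM. Both vestibular libraries were above, but only narrowly for vestibular 2 (log2 difference 1.05, limma adjusted p 0.398, and 0.35 without vestibular 1). Pcdh11x had at most 0.137 FPKM.

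The delta-2 protocadherins, which in brain bind the actin-regulating WAVE complex, were low and leaned on single libraries. Pcdh10 stood at 6.83 FPKM in vestibular 1, and at 0.245, 0.886 and 0.157 in vestibular 2, cochlear 1 and cochlear 2. Pcdh19, an X-linked gene mutated in a human epilepsy of girls, was instead highest in vestibular 2, with 1.10 and 5.04 against 2.25 and 1.93 FPKM. The vestibular libraries thus carried different members of this family at their highest, and neither direction held: the log2 difference of Pcdh10 was 1.08 and that of Pcdh19 0.21, but -0.25 without vestibular 1 and -0.56 without vestibular 2. Pcdh18 stood at 5.74 and 2.85 against 1.56 and 2.18 FPKM, with both vestibular libraries above (log2 difference 0.83, SE 0.35, limma adjusted p 0.325). Pcdh8 and Pcdh17 stayed under 1 FPKM. Of the unclassed single protocadherins, Pcdh20 stood at 4.46 and 1.61 against 2.24 and 9.99 FPKM, highest in cochlear 2 (log2 difference -0.66, SE 0.77, limma adjusted p 0.666, and 0.22 without cochlear 2), and Pcdh12 of endothelium had at most 0.0389 FPKM.

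Of the 11 tested genes outside the clusters whose groups did not overlap, 3 had a promoter in the RefSeq table used here (build GRCm38.p6, 250 bases before to 50 after the start), and these are shown because they lie on both sides of the comparison: Pcdh18 and Pcdh9 were above in both vestibular libraries, Cdh24 in both cochlear libraries. They were searched on both strands for CAGGTG (the E-box bound by the Snail and ZEB repressors, known from the E-cadherin promoter), for GGGCGG (the GC box) and for TATAAA, and no matches overlapped. For Pcdh9 the table holds 2 starts, of which the first was used. Capitals mark the matches, and each sequence runs 5′ to 3′ on the strand of the gene.
Pcdh18, chr3:49757267-49757566, minus strand: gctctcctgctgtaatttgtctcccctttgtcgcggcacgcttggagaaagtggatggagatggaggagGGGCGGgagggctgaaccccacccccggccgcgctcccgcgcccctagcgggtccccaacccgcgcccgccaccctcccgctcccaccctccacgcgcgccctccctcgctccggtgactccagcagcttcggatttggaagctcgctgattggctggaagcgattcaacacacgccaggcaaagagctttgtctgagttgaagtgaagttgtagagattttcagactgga
Pcdh9, chr14:93890630-93890929, minus strand: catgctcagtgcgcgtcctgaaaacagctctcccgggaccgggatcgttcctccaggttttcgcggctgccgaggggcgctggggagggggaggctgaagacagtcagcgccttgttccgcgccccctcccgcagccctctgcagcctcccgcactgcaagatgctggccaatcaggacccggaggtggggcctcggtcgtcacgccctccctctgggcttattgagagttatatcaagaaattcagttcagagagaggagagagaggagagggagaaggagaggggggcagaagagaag
Cdh24, chr14:54641315-54641614, minus strand: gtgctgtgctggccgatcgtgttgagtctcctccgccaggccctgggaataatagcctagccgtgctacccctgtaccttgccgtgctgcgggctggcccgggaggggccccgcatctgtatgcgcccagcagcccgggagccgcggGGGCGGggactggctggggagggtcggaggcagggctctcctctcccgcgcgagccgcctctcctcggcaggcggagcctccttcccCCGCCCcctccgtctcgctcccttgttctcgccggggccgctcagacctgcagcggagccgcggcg
None of the 3 windows holds CAGGTG or TATAAA, which 20.2% and 13.6% of the 32851 promoters of the table hold. The GC box occurs once in Pcdh18 and at 2 places in Cdh24, and 35.7% of all promoters have it. Guanine and cytosine made up 63.0%, 62.7% and 73.3% of the bases of Pcdh18, Pcdh9 and Cdh24, with a median of 52.7% over the table.

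The clustered protocadherins are 59 of the 96 members and lie side by side on chromosome 18. In the alpha and gamma clusters each gene has its own first exon, which is spliced to constant exons that all genes of that cluster share, so fragments from the shared exons can be split between the genes. The beta genes lack such shared exons but are close copies of each other, which also leaves their single values uncertain. In neurons the combination of these genes differs from cell to cell and serves self-recognition. None of the 15 alpha genes reached 1 FPKM in any library (highest Pcdhac2 with 0.587, 4 of the 15 listed at 0 throughout). Of the 22 beta genes 10 were tested, and of the 22 gamma genes 21.

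The gamma cluster was the main source of protocadherin mRNA, with 151 and 211 FPKM summed in vestibular 1 and 2 and 123 and 114 in cochlear 1 and 2. One gene, Pcdhgc3, held 44.3% and 51.7% of that sum in the vestibular libraries, against 42.6% and 45.5% in the cochlear ones. Pcdhgc3 stood at 66.8 and 109 FPKM against 52.3 and 52.1. Both vestibular libraries were higher (log2 difference 0.70, SE 0.27, limma p 0.0667, adjusted p 0.300), and the difference was 0.35 without vestibular 2 and 1.05 without vestibular 1.

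Of all 21 gamma genes tested, Pcdhgc3 included, 19 had a difference above 0 and 2 below (median 0.37). Over all genes 6788 of 13200 were above 0. Fragments of the shared exons can be split between the gamma genes, so the 21 are not separate observations. Both vestibular libraries were above in 9 of the 21, against 26.9% of all genes. Without Pcdhgc3, 18 of 20 were above 0, with a median of 0.34, and 8 had both vestibular libraries above. These counts depended on vestibular 2: without it, 12 of the 21 were above 0 and 9 below, with a median of 0.13. At an unadjusted p under 0.05 in the vestibular direction were 2 of the 21 (9.52%), near the 7.61% of all genes. In the cochlear direction there were 0, against 10.6%. Of these 2 genes, Pcdhga5 had 5.92 and 7.06 against 4.59 and 3.91 FPKM (log2 difference 0.51, limma p 0.0408). Pcdhga12 had 4.74 and 2.58 against 1.33 and 1.53 FPKM (0.90, limma p 0.0452). Their adjusted p was 0.257 and 0.266.

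The vestibular libraries also differed among themselves in which gamma genes were high. Pcdhgb2 stood at 8.94 and 5.51 FPKM in vestibular 1 and 2 (4.42 and 3.38 in the cochlear libraries), Pcdhgb4 at 8.17 and 4.52 (3.95 and 3.0), and Pcdhgc5 at 8.27 and 2.24 (2.50 and 3.09), all highest in vestibular 1. In contrast Pcdhgb6 stood at 5.74 and 11.8 FPKM (8.32 and 6.27) and Pcdhga6 at 3.05 and 6.73 (3.56 and 3.87), both highest in vestibular 2. The log2 differences of Pcdhgb2, Pcdhgb4, Pcdhgc5 and Pcdhgb6 were 0.72, 0.68, 0.54 and 0.17 (SE 0.28, 0.32, 0.58 and 0.38), with limma adjusted p of 0.300, 0.360, 0.642 and 0.829. The highest of the cluster after Pcdhgc3 in level over all libraries were Pcdhgb6 and Pcdhga7, the latter with 8.0 and 9.67 against 7.46 and 5.47 FPKM (log2 difference 0.40, limma adjusted p 0.380). Pcdhga10 had 5.24 and 6.87 against 4.69 and 4.71 FPKM (0.30, limma adjusted p 0.434).

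The other gamma genes tested were Pcdhga1, Pcdhga2, Pcdhga3, Pcdhga4, Pcdhga8, Pcdhga9, Pcdhga11, Pcdhgb1, Pcdhgb5, Pcdhgb7 and Pcdhgc4. None of them exceeded 6.13 FPKM in a library. Pcdhga2 had 2.36 and 4.74 against 5.22 and 4.58 FPKM and was, with Pcdhgc4 (1.30 and 0.753 against 0.578 and 1.79), the only tested gamma gene with a difference below 0 (-0.42 and -0.07). Pcdhgb8, annotated as a polymorphic pseudogene, stayed under 1 FPKM.

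The beta cluster summed to 35.2 and 36.7 FPKM in the vestibular libraries, against 25.8 and 25.1 in the cochlear ones, so its sum lay higher in both vestibular libraries. All 10 beta genes tested had a difference above 0 (median 0.28, from 0.06 to 0.56), beside 6788 of 13200 over all genes. Of the 10, 8 had both vestibular libraries above, against 26.9% of all genes. None was at an unadjusted limma p under 0.05, against 7.61% and 10.6% of all genes in the vestibular and cochlear directions. Without vestibular 2, 8 were above 0 and 2 below. Pcdhb17 was the highest, with 6.67 and 8.21 FPKM in the vestibular libraries, against 6.06 and 6.07 in the cochlear ones (log2 difference 0.25, SE 0.15, limma adjusted p 0.448). Pcdhb14 gave the largest difference, with 4.05 and 3.06 against 2.31 and 1.84 FPKM (0.56, limma adjusted p 0.293). Pcdhb22 had 3.37 and 5.24 against 2.84 and 2.68 FPKM, and Pcdhb9, Pcdhb15, Pcdhb16, Pcdhb18, Pcdhb19, Pcdhb20 and Pcdhb21 ranged from 0.676 to 3.27 FPKM. Pcdhb5, Pcdhb12 and Pcdhb13, under the level tested, passed 1 FPKM only in vestibular 1, with 1.17, 1.63 and 2.22 FPKM.

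Within the beta cluster the level followed the position, in every library alike. The cluster spans 37264938 to 37524479 on the plus strand, and Spearman's rho between a gene's start and its FPKM over the 22 genes was 0.71 and 0.82 in the vestibular libraries, against 0.78 and 0.81 in the cochlear ones. The genes Pcdhb1 to Pcdhb12 had a median of 0.280 to 0.569 FPKM over the 4 libraries, and Pcdhb13 to Pcdhb22 one of 1.42 to 2.36. This division was made after the values were seen, and the rho is a description across genes that share each library and differ in annotated length. No such order was seen in the gamma cluster, where rho ran from -0.32 to -0.02.

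**Figure D5:**
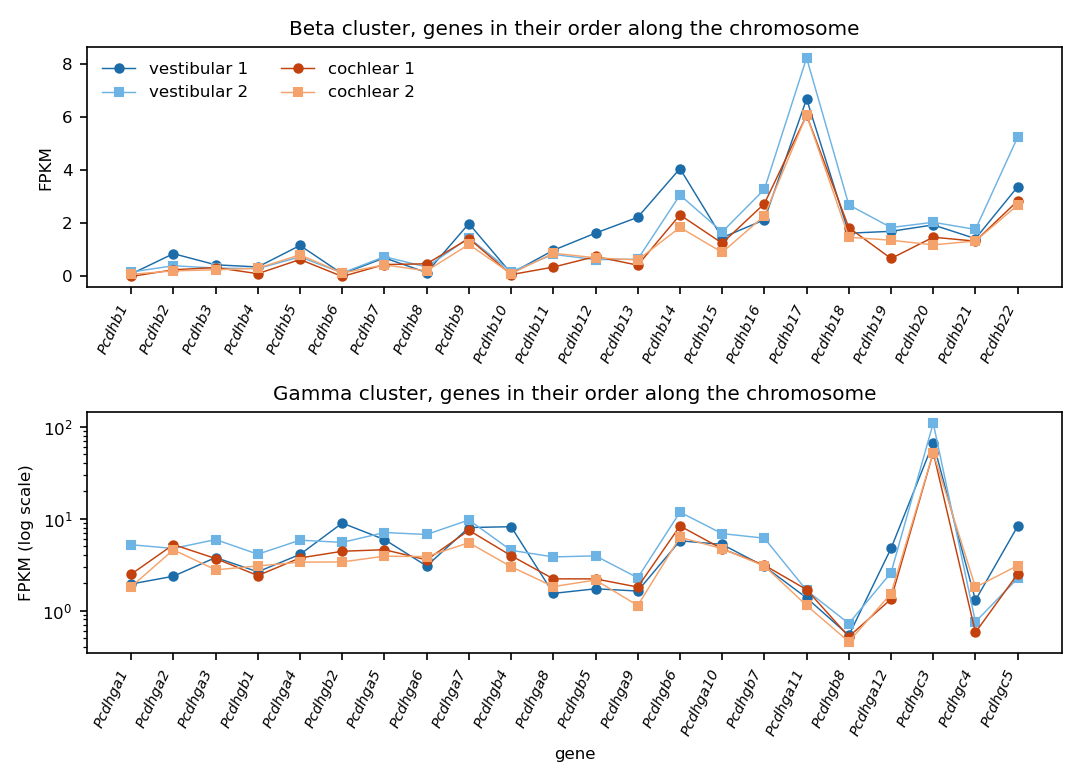
Lines join the FPKM of the genes of the beta cluster (upper panel, linear axis) and the gamma cluster (lower panel, log axis) in their order along the chromosome, 1 line per library. In all 4 libraries Pcdhb17 (6.06 to 8.21 FPKM) is the beta peak and Pcdhgc3 (52.1 to 109 FPKM) the gamma peak, while the vestibular lines part at other gamma genes such as Pcdhgc5 (8.27 and 2.24 FPKM).

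Genes whose products bind to or control the clustered locus were read from a list of 10, of which 9 were tested. The insulator gene Ctcf was even, with 18 and 20.5 FPKM in the vestibular libraries, against 19.3 and 19.6 in the cochlear ones (log2 difference -0.02, SE 0.12, limma adjusted p 0.934). One of the 9, the cohesin gene Rad21, was at an unadjusted p under 0.05, with 39.8 and 36.5 against 52.8 and 53.7 FPKM (log2 difference -0.47, limma p 0.0116, adjusted p 0.187). Over all genes 10.6% were at such a p in the cochlear direction, so 1 of 9 is near the background. Smchd1, which encodes a silencer of the locus, had 11.1 and 13.5 against 10.1 and 9.43 FPKM. The list's median difference was -0.02, and Smc1a, Smc3 and Nipbl, also of the cohesin machinery, had differences between -0.09 and 0.24.

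The partners of cadherins at the adherens junction were read from a list of 21 genes, of which 20 were tested. Limma called 0 of them after adjustment. At an unadjusted p under 0.05 were 8, of which 6 were higher in cochlear and 2 in vestibular cultures, against 10.6% and 7.61% of all genes. This count fell without cochlear 1 and without cochlear 2, and so did the share over all genes. Both cochlear libraries were above in 11, against 28.4% of all genes, and both vestibular libraries in 7, against 26.9%. The median difference was -0.40.

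The catenin genes lay on both sides. Ctnna1, the alpha-catenin gene of epithelia and many other cells, had 128 and 107 FPKM in the vestibular libraries, against 181 and 217 in the cochlear ones (log2 difference -0.76, limma p 0.0123, adjusted p 0.189). The gene of p120-catenin, Ctnnd1, had 123 and 135 against 205 and 179 FPKM (-0.57, limma p 0.0143), and plakoglobin (Jup), shared with desmosomes, 24.3 and 29.4 against 36.5 and 41.4 (-0.52, limma p 0.0279). Each of these had both cochlear libraries above. The neural relatives lay the other way: Ctnna2 had 4.87 and 16.9 against 2.85 and 2.96 FPKM (1.40, limma p 0.0874), and Ctnnd2 3.38 and 9.50 against 1.40 and 1.23 (1.55, limma p 0.0376). Ctnnb1, the beta-catenin gene that also serves WNT signalling, was the highest of the list and nearer to even, with 300 and 343 against 257 and 255 FPKM (0.32, limma p 0.0707).

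Junction scaffold and nectin genes were mostly above in the cochlear libraries. The afadin gene (Mllt4) had the smallest p of the list, with 19.5 and 16.6 against 33.1 and 39.7 FPKM (log2 difference -0.97, SE 0.15, limma p 0.00408, adjusted p 0.134). The nectin-2 gene (Pvrl2) had 41.9 and 32.3 against 66.2 and 89.2 FPKM (-1.04, limma p 0.0117), and Camsap3, which ties microtubules to the junction, 2.49 and 0.392 against 6.55 and 6.87 (-1.81, limma p 0.0270). Arvcf, a relative of p120-catenin, was above in the vestibular libraries with 12.5 and 10.8 against 6.29 and 8.77 FPKM (0.58, limma p 0.0496). Vinculin (Vcl) had 111 and 93.5 against 80.1 and 85.2 FPKM, and Lima1, which encodes an actin cross-linker, overlapped between the groups (58.9 and 65.3 against 58.6 and 74.7 FPKM).

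Larger relatives lie outside the symbol rule, and their list also holds Fjx1, a kinase gene of the Fat and Dachsous pathway whose product is no cadherin. Of 13 listed, 12 were in the files and 11 were tested, with a median difference of -0.07. At an unadjusted p under 0.05 were 2 in the vestibular and 1 in the cochlear direction, against 7.61% and 10.6% of all genes. Dchs1, a giant cadherin of planar polarity, had 14.7 and 14.1 FPKM in the vestibular libraries, against 7.07 and 6.80 in the cochlear ones (log2 difference 0.95, SE 0.11, limma p 0.00139, adjusted p 0.107). Its binding partner Fat4 had 27.5 and 9.17 against 3.49 and 2.11 FPKM (2.19, limma p 0.0238), so this ligand and receptor pair was higher in both vestibular libraries. Fat2 had 0.155 and 0.384 against 2.92 and 1.13 FPKM (-1.19, limma p 0.0452). Fat1 (76.8 and 107 against 73.7 and 71.7 FPKM) and the calsyntenin gene Clstn1 (65 and 78.8 against 76.9 and 80.3) were the highest of the list, with limma adjusted p of 0.457 and 0.628. Celsr2, of the planar polarity pathway, had 4.55 and 6.67 against 7.17 and 9.89 FPKM (-0.53, limma adjusted p 0.367), and Fjx1 overlapped between the groups.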

How the data were processed

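RNA sequencing of 4 libraries was deposited as FPKM per gene symbol, 1 file per library. Cuffdiff 2.2.1, TopHat2 2.1.1 with Bowtie2 2.2.8, and SAMtools 0.1.18 are named, with the build mm10, per the submitters' processing notes. Per the labels' protocols, libraries came from a stranded TruSeq mRNA kit. The sources used here do not give settings, annotation, strand use or scaling between libraries. FPKM totals per library were 479380 to 519122, with unknown depth in fragments and hence no counting intervals.

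Members were taken by symbol. The members and gene lists were chosen with earlier results of these data known. The 13200 genes whose mean FPKM reached 1 were tested as log2(FPKM + 1) with limma 3.58.1 in R 4.3.3 (2-sided, with a trend of variance on mean), adjusted by Benjamini-Hochberg across all of them at a threshold of 0.05. Such differences understate those of low genes. The fit was tested on simulated data. Every member tested is named. Values per library went to members with a mean of at least 5 FPKM in the higher group or an unadjusted p under 0.05. Other members and list genes with values were chosen after their values were seen. Positions came from GENCODE M21 (GRCm38, which mm10 names) and placed 93 of the 96 members. Promoters came from RefSeq, which held 24 members. Alternatives were another pseudocount, filter, scaling and variance model, a replicate block, and leaving out each library.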

Additional observations from a re-analysis of the deposited data

How the results depend on the processing

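No member passed limma's adjusted threshold under any of the 11 alternatives, and the 21 members with full values kept their direction in 218 of 224 alternative values. Another filter, the variance model and the replicate block leave the log2 difference as it was, so these values could not reverse. The 21 were picked by level or unadjusted p, and other members, such as Pcdh10 and Pcdh19, reversed on leaving out a library. Among the 21, the exceptions came from leaving out a library. Without cochlear 2 the log2 difference was 0.22 for Pcdh20, -0.03 for Pcdh7 and -0.01 for Pcdhgb6. Without vestibular 2 it was -0.48 for Pcdh7 and -0.29 for Pcdhgb6, and without vestibular 1 it was -0.22 for Pcdhgc5; the cause was not tested. Leaving out each library gave ranges of -1.54 to 0.22 for Pcdh20, -0.48 to 0.81 for Pcdh7, -0.29 to 0.63 for Pcdhgb6 and -0.22 to 1.29 for Pcdhgc5. Members at an unadjusted p under 0.05 (9) numbered 15 with no filter on low values (88 tested), 5 at a mean of at least 5 FPKM (14 tested), and 6 to 15 on leaving out 1 library. Members whose groups do not overlap (28) numbered 48 with no filter, 11 at a mean of at least 5 FPKM, and 32 to 43 on leaving out 1 library, where 1 library stands for a group and 73.3% to 80.5% of all genes do not overlap. Partner genes at an unadjusted p under 0.05 (8) numbered 5 at a mean of at least 5 FPKM, and 4 to 11 on leaving out 1 library. Over all genes tested, 18.2% were at an unadjusted p under 0.05 in the main setting. The share was 16.3% with no filter, 18.7% at a mean of at least 5 FPKM and 14.3% with the replicate number as a block. Groups did not overlap in 55.3% of all genes, in 49.6% with no filter and in 55.9% at a mean of at least 5 FPKM. With the replicate number as a block, 9 members were at an unadjusted p under 0.05 and the lowest adjusted p was 0.254. The numbers are not known to pair the samples: same-numbered deviations from the group means correlated at 0.04 across 13200 genes. A lone library was assumed to vary like the other group. Low members are limited by unknown depth.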
